A study of Homo sapiens with 10 samples.

Results

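NEAT1 and MALAT1, a pair of abundant long non-coding RNAs that stay in the nucleus, were followed in the OVCAR-3 ovarian adenocarcinoma cell line together with 6 further genes: the non-coding RNAs SNHG14, FTX and PVT1 and the coding genes PABPC1L, GOLGA8A and GOLGA8B. These 8 genes were taken by symbol from a table of 58222 genes, and all 8 were among the 15167 genes with at least 1 TPM (a length-corrected share of the RNA of each library) in at least 2 libraries. They were chosen on the contrast of gel-immobilized with standard cultures, for a parallel fall of some of them in gel, so their values in that contrast are given as a description without a test. The 10 libraries came from 5 groups, each of 2 samples that the labels call biological replicates. Standard culture without gel or drug served as Control. Day1 cells had been held in silica gel, a porous inorganic matrix, for 24 hours and Day3 cells for 3 days. Extracted cells had outlived 3 days in gel and then grown in standard culture for 2 weeks. Treated cells had outlived cisplatin, the DNA-crosslinking platinum compound, at 0.5 uM for 24 hours without gel, and then grown for 2 weeks. All groups are derived from the same cell line, and the p-values measure the spread between these samples.

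NEAT1 is the scaffold of paraspeckles, nuclear bodies that form around its long isoform and hold RNA-binding proteins such as NONO and SFPQ. MALAT1 gathers in nuclear speckles, where splicing factors are stored. Both are transcribed by RNA polymerase II, and both the long NEAT1 isoform and MALAT1 end without a usual poly(A) tail: an A-rich tract encoded in the genome folds against upstream U-rich tracts into a triple helix that protects the 3′ end.

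The 3′ ends show what the RNAs share in sequence and are given with T for U, 5′ to 3′ on the plus strand, from the GENCODE 29 transcripts on GRCh38. Capitals mark the letters searched, a U-rich stretch (TTTGCTTTT) and the A-rich stretch at the end (AAAGCAAAA). The NEAT1 stretch, at chr11:65445431-65445540, is the last 110 bases of the 22743-base isoform NEAT1-202, and the MALAT1 stretch, at chr11:65506007-65506116, ends 353 bases before the annotated end of the 8708-base transcript MALAT1-202.
NEAT1: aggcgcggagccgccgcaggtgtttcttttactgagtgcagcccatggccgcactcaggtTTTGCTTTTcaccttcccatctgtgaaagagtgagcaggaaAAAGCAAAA
MALAT1: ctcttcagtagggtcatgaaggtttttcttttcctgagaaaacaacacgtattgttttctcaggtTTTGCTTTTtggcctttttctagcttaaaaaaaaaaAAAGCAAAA
The U-rich and A-rich stretches are 32 bases apart in NEAT1 and 27 in MALAT1. Both stretches, in this order on the transcript strand and within 150 bases, were found in transcripts of 6 of 14994 long non-coding RNA genes (0.04%). The letters searched are those of the ends shown, so NEAT1 and MALAT1 are among the 6 by the choice of letters. No 50-base stretch of any NEAT1 transcript occurs in a MALAT1 transcript, so reads of these genes can be told apart.

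NEAT1 (ENSG00000245532) lies on chromosome 11 from 65422774 to 65445540, and MALAT1 (ENSG00000251562) on the same strand of that chromosome from 65497688 to 65506516. NEAT1 measured 101.8 and 107.7 TPM in the Control libraries, 12.4 and 16.9 at Day1, and 22.5 and 18.5 at Day3. It measured 132.3 and 135.2 TPM for Extracted and 239.5 and 186.8 for Treated. The groups came in the order Day1, Day3, Control, Extracted and Treated, and no library of any group overlapped with a neighbouring group. The Control mean was 7.14 times the Day1 mean and 5.11 times the Day3 mean. On the scale of log2(TPM + 1), on which all differences below are given, NEAT1 was lower by -2.77 at Day1 and -2.30 at Day3, and 7 of the 15167 tested genes had a lower value than NEAT1 on each day. Gene-level TPM do not separate the short polyadenylated NEAT1 isoform from the long one.

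MALAT1 measured 165.4 and 159.5 TPM in Control, 50.7 and 32.7 at Day1, and 69.1 and 58.0 at Day3. It measured 197.5 and 187.6 TPM for Extracted and 288.5 and 161.8 for Treated. The order of the first 4 groups was that of NEAT1 without overlap, while the Treated libraries lay far apart and spanned the Extracted values. Against Control the differences were -1.97 at Day1 and -1.34 at Day3, smaller than those of NEAT1. The ratio of NEAT1 to MALAT1 was 0.615 and 0.675 in the Control libraries, 0.245 and 0.517 at Day1, 0.325 and 0.320 at Day3, 0.670 and 0.721 for Extracted and 0.830 and 1.15 for Treated. It was thus lower in every gel library than in every Control library and higher in every Treated library. A second identifier that carries the symbol MALAT1, a small RNA family entry inside the gene, was listed at 0 in all 10 libraries.

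NEAT1 and MALAT1 together made up 3.05% and 2.97% of the TPM of all long non-coding RNA genes in Control, 0.644% and 0.536% at Day1, and 0.995% and 0.853% at Day3. The share was 3.46% and 3.22% for Extracted and 2.14% and 3.90% for Treated. In Treated replicate 1 long non-coding RNA genes held 2.47% of all TPM, against 0.876% to 1.00% in the other 9 libraries, so the lower share there goes with a larger total. In bulk RNA, fewer cells that hold an RNA and less of it per cell cannot be told apart.

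**Figure D1:**
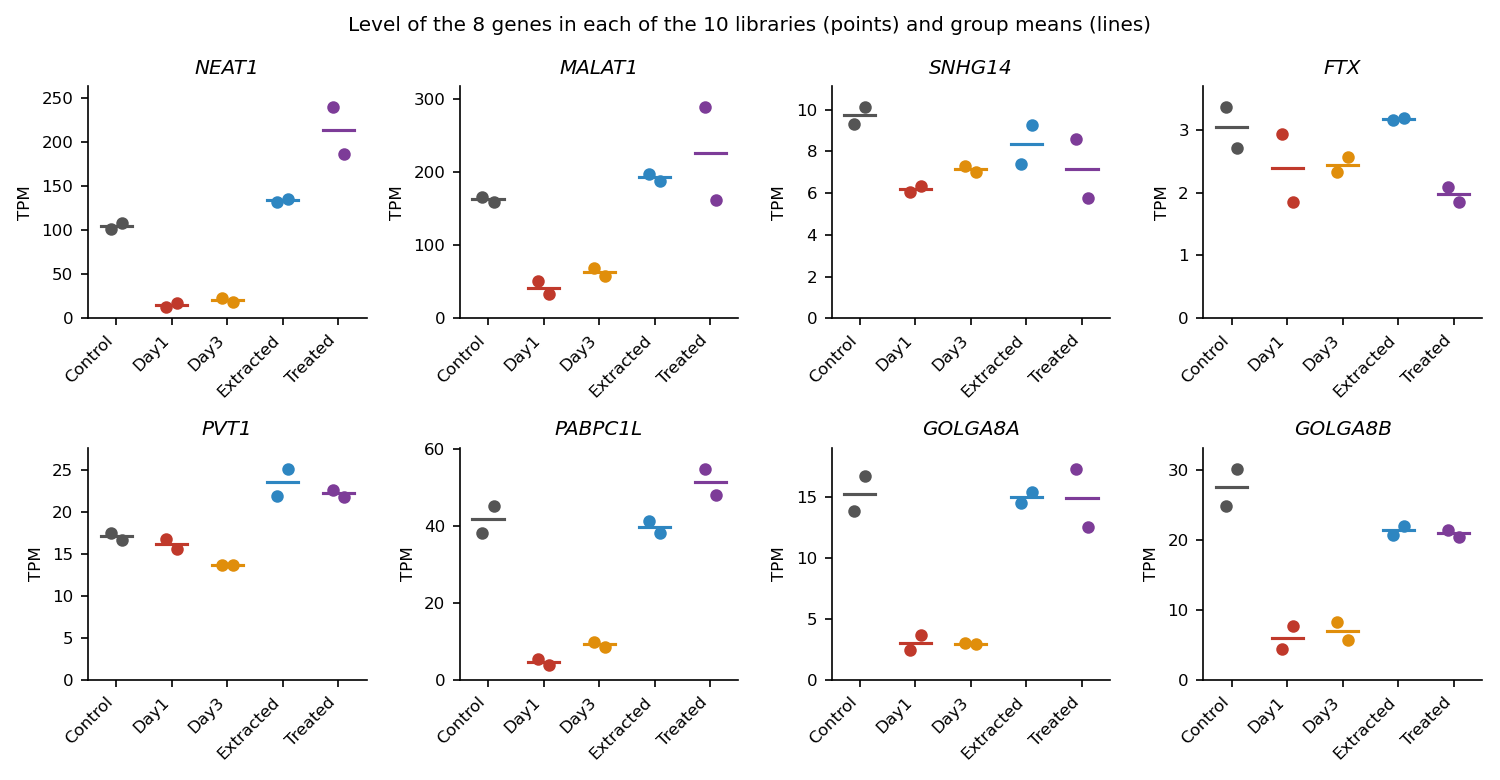
TPM (vertical axes, from 0) of the 8 genes in the 10 libraries, with 1 point per library and a line at each group mean of 2 libraries. NEAT1, MALAT1, PABPC1L, GOLGA8A and GOLGA8B are low in all 4 gel libraries and back near or above Control in Extracted cells, whereas SNHG14, FTX and PVT1 differ little between gel and Control.

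The other 3 non-coding RNAs differed much less between gel and Control. SNHG14 (ENSG00000224078, chromosome 15 from 24978583 to 25419462) is the long imprinted transcript that hosts clusters of small nucleolar RNAs and runs antisense to UBE3A. It measured 9.33 and 10.1 TPM in Control, 6.06 and 6.36 at Day1, 7.29 and 7.01 at Day3, 7.40 and 9.27 for Extracted, and 8.57 and 5.74 for Treated. All 4 gel libraries lay below both Control libraries, by -0.57 at Day1 and -0.39 at Day3, and the Treated libraries spanned the values of both gel days. SNHG14 overlaps the tested genes UBE3A and SNRPN, and the strand setting of the libraries is not given in the sources used here.

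FTX (ENSG00000230590, chromosome X from 73946555 to 74293574) is a non-coding gene of the X-inactivation centre. It was low throughout, at 3.36 and 2.71 TPM in Control, 2.93 and 1.86 at Day1, 2.32 and 2.56 at Day3, 3.15 and 3.19 for Extracted and 2.10 and 1.85 for Treated. Control and Day1 overlapped, with a difference of -0.26, and both Day3 libraries lay just below Control, with a difference of -0.23. Genes that lie inside FTX, of which the pseudogene USMG5P1 was tested, summed to 27.6 and 14.4 TPM at Day1 and to 14.5 TPM in Day3 replicate 2, against at most 1.18 in the other 7 libraries. The part of these reads in the FTX values was not tested.

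PVT1 (ENSG00000249859, chromosome 8 from 127794533 to 128101253) neighbours MYC and is often gained with it in tumours. It measured 17.5 and 16.7 TPM in Control, 16.8 and 15.6 at Day1, and 13.6 and 13.6 at Day3. Extracted cells had 21.9 and 25.2 TPM and Treated cells 22.6 and 21.8. Day1 overlapped Control (-0.07), Day3 lay below it (-0.31), and all 4 libraries of recovered cells lay above every other library. Genes inside PVT1, of which RNU1-106P and PVT1_1 were tested, summed to 48.3 and 48.0 TPM at Day3 and 88.1 TPM in Treated replicate 1, against at most 11.7 in the other 7 libraries, and their part in the PVT1 values was not tested.

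Of the coding genes chosen here, PABPC1L, GOLGA8A and GOLGA8B, the first stood nearest to NEAT1. PABPC1L (ENSG00000101104, chromosome 20 from 44910062 to 44959035) encodes a relative of the cytoplasmic poly(A)-binding protein known best from oocytes. It measured 38.2 and 45.2 TPM in Control, 5.38 and 3.96 at Day1, 9.94 and 8.47 at Day3, 41.2 and 38.1 for Extracted, and 54.9 and 48.0 for Treated. Day1 was the lowest group and Day3 the next without overlap, Control and Extracted overlapped, and both Treated libraries were above all others. The differences from Control were -2.92 at Day1, where 5 tested genes had a lower value, and -2.06 at Day3. PABPC1, the common cytoplasmic poly(A)-binding protein, shared no 50-base stretch with PABPC1L and measured 2024 and 2133 TPM in Control, 2624 and 2413 at Day1 and 2264 and 2304 at Day3, so the paralogs moved apart in gel. PABPC1L overlaps TOMM34 on the opposite strand.

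GOLGA8A (ENSG00000175265, chromosome 15 from 34379068 to 34437466) and GOLGA8B (ENSG00000215252, chromosome 15 from 34525207 to 34588503) are recent copies of a golgin gene, and golgins are coiled-coil proteins of the Golgi apparatus. GOLGA8A measured 13.8 and 16.7 TPM in Control, 2.41 and 3.65 at Day1, 3.00 and 2.91 at Day3, 14.5 and 15.4 for Extracted and 17.3 and 12.5 for Treated. GOLGA8B measured 24.8 and 30.2 TPM in Control, 4.38 and 7.67 at Day1, 8.20 and 5.72 at Day3, 20.8 and 21.9 for Extracted, and 21.5 and 20.4 for Treated. For both genes the 4 gel libraries were far below all others and the gel days overlapped. The differences from Control at Day1 and Day3 were -2.02 and -2.03 for GOLGA8A and -2.05 and -1.85 for GOLGA8B.

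The copies are hard to separate. In the coding sequences of GOLGA8A-202 and GOLGA8B-201 the longest ungapped block is 1641 bases, and 1640 of them are identical. The 100 coding bases around the only difference in that block are shown, on the minus strand of GRCh38, with the differing base in capitals, at chr15:34381514-34381613 for GOLGA8A and chr15:34527735-34527834 for GOLGA8B.
GOLGA8A: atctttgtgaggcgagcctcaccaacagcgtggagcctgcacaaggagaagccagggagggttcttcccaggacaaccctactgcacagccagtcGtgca
GOLGA8B: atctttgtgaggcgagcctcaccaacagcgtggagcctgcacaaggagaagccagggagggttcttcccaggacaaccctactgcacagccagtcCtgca
Of the 50-base stretches in all GOLGA8A transcripts 68.9% also occur in GOLGA8B, and 60.0% the other way, so the split of reads between them is uncertain. Their summed TPM, which the split can also alter through the gene lengths, was 38.6 and 46.9 TPM in Control, 6.80 and 11.3 at Day1, 11.2 and 8.63 at Day3, 35.3 and 37.4 for Extracted, and 38.8 and 33.0 for Treated. The annotation gives a retained intron to 1 of 5 GOLGA8A transcripts, 3 of 11 GOLGA8B transcripts and 0 of 17 PABPC1L transcripts.

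Promoters were compared because 5 of the 8 genes were low together in gel, a pattern that entered the choice of the genes. RefSeq promoter windows on GRCh38.p14 were matched for MALAT1 (at 2 starts), SNHG14, FTX, PABPC1L and GOLGA8B. No window was available for NEAT1, GOLGA8A and PVT1. The 150 bases before the start are shown for the genes of that group, each read along its gene, with capitals for the GC box (GGGCGG or CCGCCC).
MALAT1, chr11:65497588-65497737, plus strand: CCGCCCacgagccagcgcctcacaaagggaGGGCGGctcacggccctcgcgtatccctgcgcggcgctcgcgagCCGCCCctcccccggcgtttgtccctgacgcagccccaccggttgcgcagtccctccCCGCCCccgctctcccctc
PABPC1L, chr20:44909910-44910059, plus strand: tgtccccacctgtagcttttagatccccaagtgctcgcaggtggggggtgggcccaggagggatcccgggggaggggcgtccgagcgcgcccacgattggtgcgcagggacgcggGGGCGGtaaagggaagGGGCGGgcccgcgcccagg
GOLGA8B, chr15:34583652-34583801, minus strand: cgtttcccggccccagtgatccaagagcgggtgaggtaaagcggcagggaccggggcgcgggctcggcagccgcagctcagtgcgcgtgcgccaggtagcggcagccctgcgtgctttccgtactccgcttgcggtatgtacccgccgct
In the 250 bases before the start, searched on both strands, the GC box occurred 5 times at this MALAT1 start, 3 times at PABPC1L and 0 times at GOLGA8B, and 42.6% of all 35116 promoter windows hold it at least 1 time. The second MALAT1 start has a TATA box (TATAAA, in 10.7% of all windows) and no GC box. The CCAAT box (CCAAT or ATTGG, in 32.0% of all windows) occurred 1 time at PABPC1L and in none of the other windows matched. The core letters of the hypoxia-response element (ACGTG, 18.5% of all windows), the AP-1 site (TGANTCA, 6.57%) and the heat-shock element (GAANNTTC, 5.78%) were in none of these 6 windows. A match or its absence describes these letters in this window alone.

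**Figure D2:**
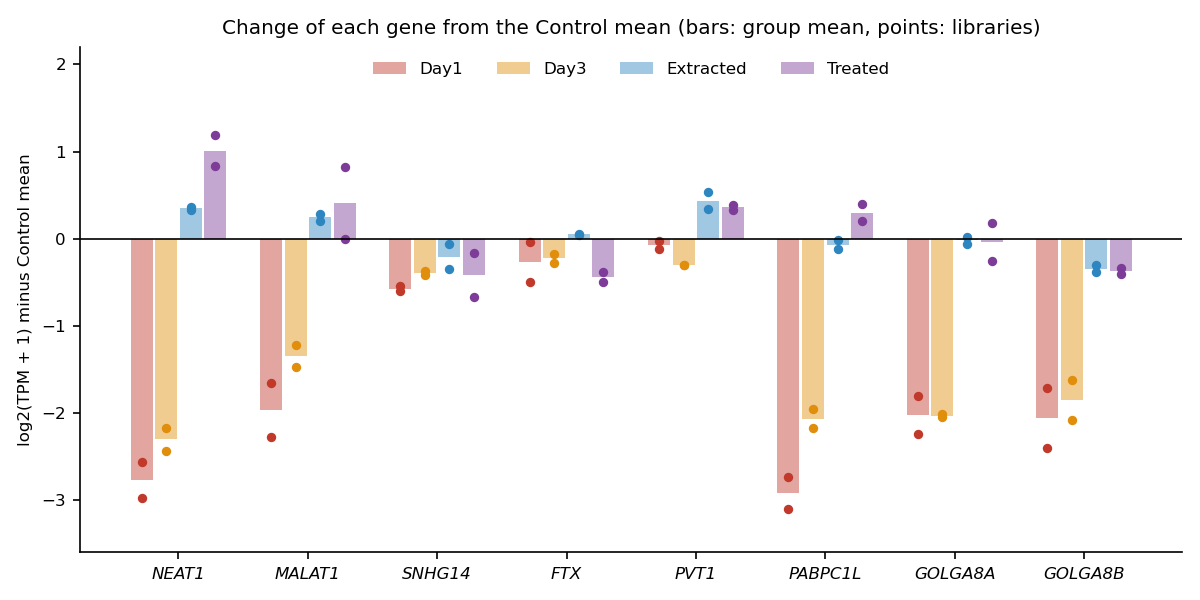
Difference from the Control mean in log2(TPM + 1) (vertical axis) for the 8 genes, with a bar for each group mean and a point for each of its 2 libraries. In Day1 the bars of NEAT1 and PABPC1L reach -2.77 and -2.92, those of MALAT1, GOLGA8A and GOLGA8B lie between -1.97 and -2.05, and those of SNHG14, FTX and PVT1 between -0.57 and -0.07.

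Distances between profiles were computed as the root mean square of the differences in log2(TPM + 1), each gene centred on its Control mean, over the 10 libraries. Among the 8 genes the nearest pairs were GOLGA8A with GOLGA8B at 0.26, FTX with SNHG14 at 0.26, FTX with PVT1 at 0.42 and NEAT1 with PABPC1L at 0.43. MALAT1 was 0.67 from NEAT1 and 0.47 from GOLGA8A. Of 10195 candidate genes, NEAT1 had the smallest distance to TPM2 (0.29), a tropomyosin that went from 13.0 TPM in Control to 1.32 at Day1, 1.99 at Day3, 13.9 for Extracted and 19.3 for Treated. XIST, the RNA that coats the inactive X chromosome, came next (0.41), at 38 TPM in Control, 4.77 at Day1, 8.39 at Day3, 38.9 for Extracted and 44.4 for Treated. PABPC1L, AHSA2 (0.53), GOLGA8A (0.61) and MALAT1 followed. For MALAT1 the nearest gene was CCNL2 (0.27), a cyclin of nuclear speckles, at 118.5 TPM in Control and 41.01 at Day3. ACCS (0.30), RNF207 (0.30), SNHG4 (0.34), SNHG12 (0.35) and NSUN5P1 (0.38) came after it, and NEAT1 ranked 120 in this order. SNHG14 ranked 641 and PVT1 958 by distance to NEAT1. These distances share the same 10 libraries and describe likeness only.

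**Figure D3:**
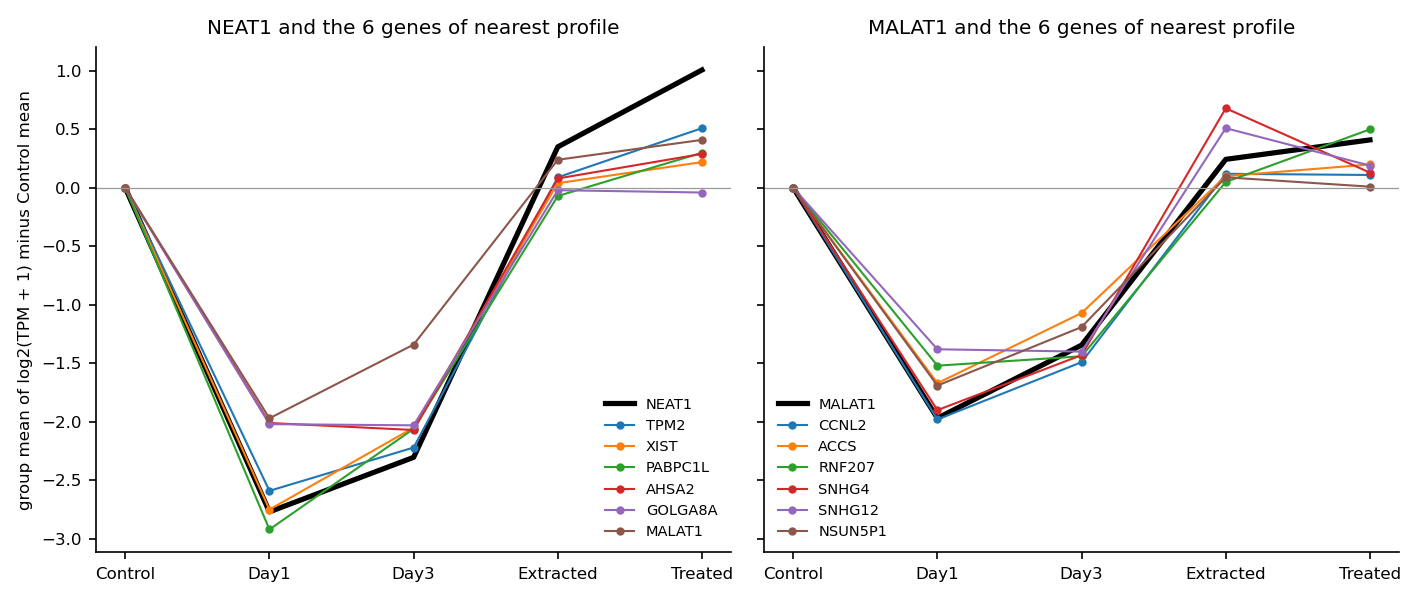
Group means of log2(TPM + 1) minus the Control mean (vertical axis) over the 5 groups, for NEAT1 (left, black) and MALAT1 (right, black) with the 6 genes at the smallest distance from each. All lines drop in Day1 and Day3 and lie between -0.07 and 0.68 in Extracted cells, and NEAT1 lies above its neighbours in Treated cells at 1.01.

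Genes beside NEAT1, PABPC1L and the GOLGA8 pair on the chromosome were compared as well. FRMD8, 9249 bases from NEAT1, measured 17.4 TPM in Control and 18.2 at Day1, and AP000769.1, a pseudogene between NEAT1 and MALAT1, 5.86 and 5.72 TPM. YWHAB, 1530 bases from PABPC1L, measured 320.6 and 358.1 TPM, and STK4 on its other side 20.4 ± 0.852 and 26.9 ± 7.18 TPM (n = 2), with both Day1 libraries above both Control libraries. LPCAT4 and AQR beside the GOLGA8 pair measured 37.7 and 32.2 and 38.2 and 43.4 TPM. None of these 6 genes was called in any comparison with Control (limma, Benjamini-Hochberg adjusted p under 0.05). XIST, described above, is the tested gene next to FTX on the lower-coordinate side, 93832 bases away.

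Lists of related genes, none of which includes the 8 genes, were counted in the same fit. On Day1, 14.4% of all tested genes rose against Control and 6.28% fell. On Day3, 5.18% rose and 4.64% fell. Genes known for detained introns, which are introns kept in otherwise finished transcripts held in the nucleus, had 9 of 32 tested members that fell at Day1 (28.1%) and 3 that rose, and 9 that fell at Day3 with 0 that rose. Their median difference was -0.25 at Day1 and -0.24 at Day3, against 0.12 and 0.06 for all tested genes. In alternatives with 2 libraries a group, the number of members that fell was 7 to 17 at Day1 and 5 to 20 at Day3. The largest counts came with nuclear protein-coding genes rescaled, where 2162 of 15169 tested genes fell at Day1 and 1528 at Day3. The 7 came with a filter at 5 TPM (810 of 11114 tested genes fell) and the 5 without a filter (406 of 27869). Leaving out Control replicate 2 on either day, or Day3 replicate 2 at Day3, gave still fewer. This list, like the others, was chosen with earlier results of these data known. In Extracted against Control, 0 of the 32 were called by limma, with 1 higher and 0 lower at an unadjusted p under 0.05.

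Within this list AHSA2 is related to the HSP90 activator AHA1 and annotated in GENCODE 29 as a transcribed unitary pseudogene. It measured 11.8 and 16.1 TPM in Control and 3.07 and 2.33 at Day1 (difference -2.01). CCNL2, a cyclin that regulates splicing, measured 101.0 and 136.1 TPM in Control and 29.7 and 28.3 at Day1 (-1.98). AHSA2 and CCNL2 were named above for their likeness to NEAT1 and MALAT1 over the same libraries. Their own values are therefore a description, though both are counted among the members that fell. CSAD, an enzyme of taurine synthesis, measured 12.7 and 21.6 TPM in Control and 3.45 and 3.60 at Day1 (-1.96, adjusted p = 0.000691). PILRB, an immunoglobulin-like receptor, fell from 24.0 ± 1.93 to 6.56 ± 1.39 TPM at Day3 (n = 2, -1.74, adjusted p = 0.00304). The gel libraries of all 4 genes lay below both Control libraries, and their Extracted libraries lay above every gel library, at 14.3 and 15.02 TPM for AHSA2, 118.3 and 136.4 for CCNL2, 11.6 and 12.4 for CSAD, and 16.6 and 18.5 for PILRB.

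Of 20 other nuclear non-coding RNAs tested, 2 rose and 1 fell on each gel day, with medians of 0.05 and -0.05. Over the alternatives 1 to 5 rose and 0 to 3 fell at Day1, and 0 to 3 rose and 0 to 2 fell at Day3. The list does not hold XIST, also a nuclear RNA, which differed from Control by -2.75 at Day1 and -2.05 at Day3. These XIST values are a description, because XIST was named above for its likeness to NEAT1 over the same libraries. LINC00963 rose at Day1 from 30.2 ± 0.735 to 52.8 ± 6.52 TPM (n = 2, 0.78, adjusted p = 0.00249), and LINC01278 rose on both days by 0.50 and 0.42. MIR17HG, the host of a microRNA cluster, is the 1 that fell at Day1, from 0.933 to 0.0973 TPM (-0.82). It reached 1 TPM only in Control replicate 1, both Extracted libraries and Treated replicate 2. It so passed the filter through groups where it was high, near the floor, and its fall is given as a description. DLEU2 fell at Day3 from 9.38 to 5.21 TPM (-0.74, adjusted p = 0.0237), and MIR31HG rose by 0.65 on that day.

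Genes for the proteins of paraspeckles and nuclear speckles were counted next. Of 30 tested genes for paraspeckle proteins, 0 rose and 2 fell at Day1 (6.67%, beside 6.28% of all tested genes). The number that fell depended on the scaling: it was 8 with median-of-ratios scaling and 14 with nuclear protein-coding genes rescaled, where 1687 of 15176 and 2162 of 15169 tested genes fell. It was 0 without Control replicate 2 and 6 without either Treated library. RBM14, which holds paraspeckles together, fell by -0.60 from 42.7 to 27.8 TPM and RBM12 by -0.55 from 148.1 to 100.4 TPM. On Day3, 0 of the 30 were called by limma, with 1 higher and 3 lower at an unadjusted p under 0.05. NONO, a core paraspeckle protein, measured 667 ± 41.9 TPM in Control and 696.6 ± 24.2 at Day3 (n = 2). Among 30 nuclear speckle and splicing-factor genes, 1 rose and 4 fell at Day1 (3.33% and 13.3%) and 1 rose and 2 fell at Day3 (3.33% and 6.67%). With the same scalings 9 and 11 fell at Day1 and 8 and 10 at Day3, where 1136 and 1528 of all tested genes fell. Without either Treated library 9 fell at Day1 and 8 at Day3, and at Day3 1 fell without any single Control, Day3 or Extracted library. SRSF5 fell at Day1 from 196.1 to 99.9 TPM (-0.97, adjusted p = 0.00226). SRRM2, a scaffold of nuclear speckles, fell at Day1 from 157.6 to 86.7 TPM (-0.86, adjusted p = 0.00138) and at Day3 to 88.5 TPM (-0.82). SRSF2 fell at Day1 by -0.54 and at Day3 by -0.35, and RNPS1 rose at Day3 by 0.32.

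**Figure D4:**
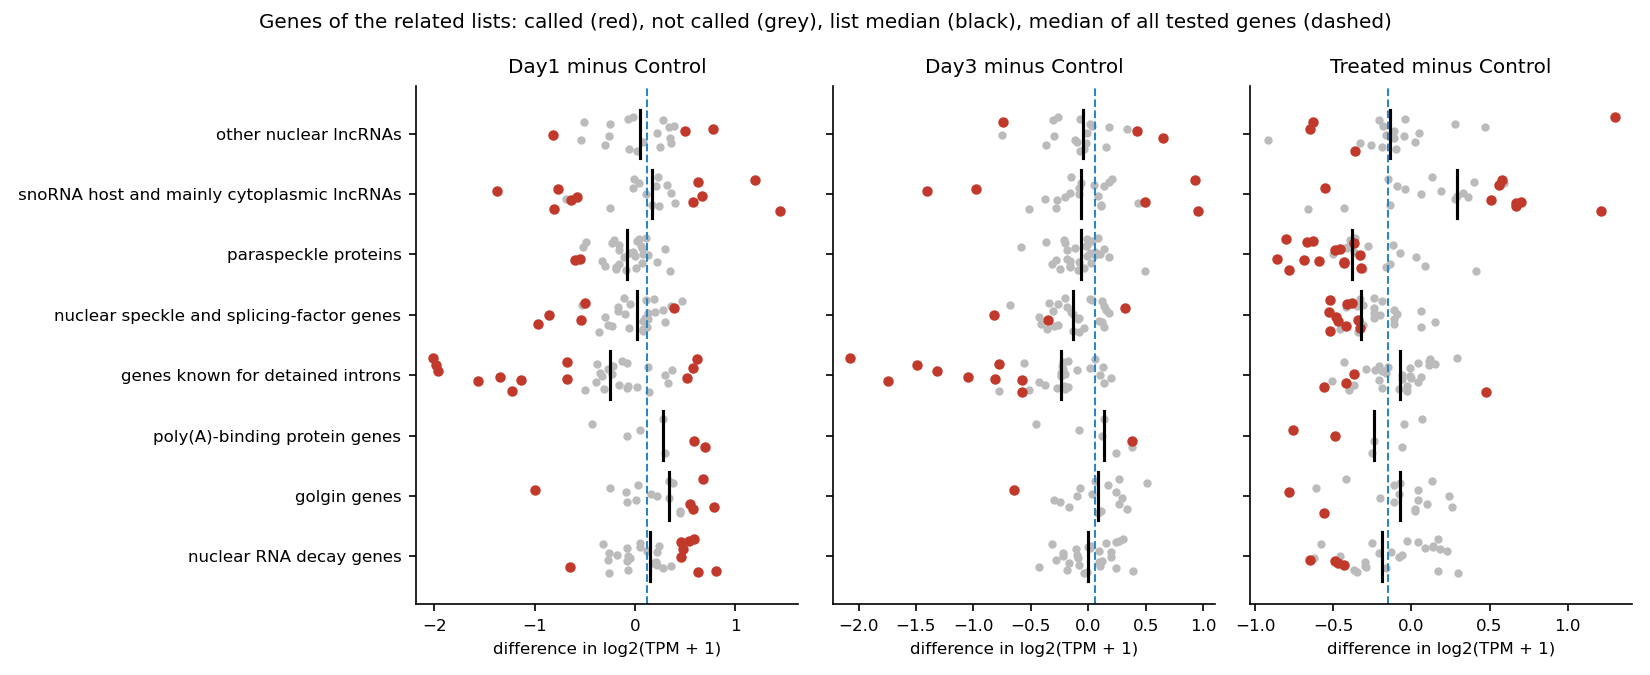
Differences in log2(TPM + 1) against Control (horizontal axes) for Day1, Day3 and Treated, with 1 point per tested gene of 8 related lists, red where the adjusted p is under 0.05, a black mark at the list median and a dashed line at the median of all tested genes (0.12, 0.06 and -0.15). The list of detained-intron genes reaches -2.01 at Day1. Paraspeckle proteins lie low in Treated cells, with a median of -0.38 and 14 of 30 red points, beside 18.2% of all tested genes that fell.

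In cells that had left the gel and grown for 2 weeks, 0 of the 8 genes were called against Control by limma. Beside this, 0.857% of all tested genes rose and 1.13% fell by the same call. At an unadjusted p under 0.05, for which no share of all genes is given, 1 of the 8 was higher and 0 were lower. The Control libraries of this comparison also entered the choice of the genes. NEAT1 differed by 0.35 ± 0.16 (SE, adjusted p = 0.291, and 0.0418 in a fit of the 2 groups alone), MALAT1 by 0.24 ± 0.25 (adjusted p = 0.673) and PABPC1L by -0.07 ± 0.15 (adjusted p = 0.864). PVT1 differed by 0.43 ± 0.11 (adjusted p = 0.0805, and 0.0378 with median-of-ratios scaling). GOLGA8B differed by -0.34 ± 0.22 with both Extracted libraries below both Control libraries (adjusted p = 0.461). From Day3 to Extracted the differences were 2.65 for NEAT1, 1.59 for MALAT1, 2.00 for PABPC1L, 2.01 for GOLGA8A and 1.51 for GOLGA8B, without overlap, given as a description because Day3 entered the choice.

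In cells that had recovered from cisplatin, 2 of the 8 genes rose against Control and 0 fell, beside 6.28% of all tested genes that rose and 18.2% that fell. These are the same Control libraries. NEAT1 was at 213.1 ± 37.3 TPM against 104.7 ± 4.21 (n = 2), and its rise of 1.01 ± 0.16 (adjusted p = 0.00244) stayed between 0.83 and 1.19 when any library was left out and passed the threshold each time. PVT1 rose by 0.36 ± 0.11 (adjusted p = 0.0408), a call that was lost without any single Control, Day3, Extracted or Treated library, with adjusted p from 0.0566 to 0.186, and with the replicate number as a block (adjusted p = 0.0512). MALAT1 differed by 0.41 ± 0.25 (adjusted p = 0.264). That value rested on single libraries: it was -0.01 without Treated replicate 1 and 0.83 (adjusted p = 0.0333) without Treated replicate 2. Small-RNA genes held 14.7% of the TPM of Treated replicate 2 and at most 3.21% elsewhere, and with them removed MALAT1 differed by 0.52 (adjusted p = 0.111) and NEAT1 by 1.12. SNHG14 differed by -0.42 ± 0.18 (adjusted p = 0.112, and 0.02 at -0.67 without Treated replicate 1), FTX by -0.44 ± 0.19 (adjusted p = 0.116), and PABPC1L by 0.30 ± 0.15 (adjusted p = 0.180, and 0.0268 at 0.46 with median-of-ratios scaling).

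The difference of Treated from Extracted is taken between libraries that did not enter the choice, but its error comes from the fit of all 10 libraries, among them the Control and gel libraries. NEAT1 was higher in Treated cells by 0.66 ± 0.16 (adjusted p = 0.0302), 1.59 times the Extracted mean, and it was the only 1 of the 8 that was called, beside 3.24% of all tested genes that rose and 8.87% that fell. This call was lost without either Extracted library (adjusted p = 0.138 and 0.150), without either Control library (0.0543 and 0.0544), without Treated replicate 1 (0.0799, at a difference of 0.48), with no filter on low values (0.0946) and in a fit of the 2 groups alone (0.0999). PABPC1L differed by 0.37 ± 0.15 without overlap (adjusted p = 0.139, and 0.0329 with median-of-ratios scaling). MALAT1 differed by 0.17 ± 0.25, PVT1 by -0.08 ± 0.11 and the GOLGA8 genes by -0.02 ± 0.19 and -0.03 ± 0.22. FTX was lower in both Treated libraries, by -0.49 ± 0.19 (adjusted p = 0.114), and SNHG14 differed by -0.21 ± 0.18 with overlap (adjusted p = 0.455). None of these was called.

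Of the 30 tested genes for paraspeckle proteins, 14 fell and 0 rose in Treated against Control (46.7%, beside 18.2% of all tested genes that fell). Against Extracted, 10 fell and 0 rose (33.3%, beside 8.87% of all tested genes that fell). The list median was -0.38 in each comparison, against -0.15 and -0.13 for all tested genes. RBM12 measured 138.2 and 157.9 TPM in Control, 116.1 and 134.3 for Extracted and 86.3 and 75.5 for Treated (-0.86 against Control, adjusted p = 0.00099). CPSF7, a subunit of a cleavage factor for polyadenylation, fell from 126 to 71.8 TPM (-0.80), and UBAP2L from 272.7 to 161.1 TPM (-0.78). Against Extracted, RBM14 fell by -0.64, RBM12 by -0.62 and RBMX by -0.61. In fits of the 2 groups alone, 6 of the 30 fell against Control and 0 against Extracted. Median-of-ratios scaling and removal of small-RNA genes lifted the median of all genes against Control to -0.01 and -0.05. Of all tested genes 1777 and 2062 then fell. With these changes the count in Treated against Control was 9 and 12. It was 24 without Treated replicate 1, 8 without Treated replicate 2, 5 without Control replicate 1 and 6 without Control replicate 2. Against Extracted it was 21 and 4 without either Treated library, and 1 and 0 without either Extracted library. Among nuclear speckle and splicing-factor genes 10 of 30 fell in Treated against Control (33.3%, beside 18.2% of all tested genes). SRPK1, CDK12 and TRA2B were at -0.53, -0.52 and -0.52. That count of 10 was 4 with median-of-ratios scaling and 0 in a fit of the 2 groups alone, and it depended on single libraries.

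The libraries differed in ways that touch these values. The mRNAs of the mitochondrial genome held 15.8% to 16.7% of the TPM in Control, 2.29% to 3.92% at Day1 and 5.97% to 7.61% at Day3, and 10.4% to 11.1% in the recovered groups. With nuclear protein-coding genes rescaled to an equal sum, NEAT1 differed from Control by -2.97 at Day1 and -2.45 at Day3 and MALAT1 by -2.18 and -1.49, so the lower levels in gel were as large on that scale. All 10 markers of ovarian epithelial carcinoma were measured at 1 TPM or more, with a sum of 5223 to 7515 TPM. Fibroblast, leukocyte and endothelial markers summed to at most 15.6, 10.1 and 2.79 TPM in any library.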

How the data were processed

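RNA of 10 OVCAR-3 libraries was analysed from the deposited gene table of TPM, which the authors made with Trimmomatic, STAR and Cufflinks on GRCh38, per the submitters' processing notes. The sources used here do not give versions, library selection or strand. Because the values are TPM and not counts, sequencing depth is unknown. The 58313 entries were summed per Ensembl identifier to 58222 genes, and positions came from GENCODE 29 (99.55% matched). Two-sided tests used limma 3.58.1 (R 4.3.3) with a mean-variance trend, on log2(TPM + 1) of genes that reached 1 TPM in 2 or more libraries. All libraries entered a single fit (5 residual degrees of freedom), and a call needed an adjusted p (Benjamini-Hochberg) below 0.05. Differences on this scale understate those of low TPM. The script was tested on simulated data. The 8 genes and the lists were chosen with earlier results of these data known. Of each list, the 3 called members with the largest change in each gel day were named, or the 2 with the highest TPM, and the same elsewhere where at least 1 in 5 was called. Nearest profiles were the 6 smallest distances among tested genes of at least 5 TPM in Control. The alternatives changed the pseudocount, filter, scaling, samples, block or minimum fold. Sequences were read with Python 3.11.15, pandas 2.3.3, NumPy 2.4.6 and Biopython 1.88, and plots were made with Matplotlib 3.10.9. Proteins, splicing and reads were not analysed here.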

Additional observations from a re-analysis of the deposited data

Results flagged for a closer look

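The change of NEAT1 against Control differed between the recovered groups, since Treated cells lay 0.66 above Extracted cells on the log2 scale (limma, adjusted p = 0.0302, with both Treated libraries above both Extracted libraries). The call depended on single libraries, as given above, and no explanation was tested.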

How the results depend on the processing

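Depth is unknown and each group has 2 libraries, so a library left out leaves its partner to be assumed as variable as the other groups. Of 715 repeated fold changes of the 8 genes, 653 kept direction and side of the threshold (or, in gel, moved by less than 1 SD), 25 changed sign and 17 lost a call, of NEAT1 in Treated against Extracted or of PVT1 in Treated against Control. In gel no sign changed. Sign changes were confined to values that were not called. In Treated against Extracted, median-of-ratios, protein-coding and small-RNA rescaling gave 0.06, 0.03 and 0.01 for PVT1, 0.11, 0.09 and 0.06 for GOLGA8A, and 0.11, 0.08 and 0.06 for GOLGA8B. In Treated against Control the first and last gave 0.11 and 0.06 for GOLGA8A. With libraries left out, MALAT1 ranged from -0.01 to 0.83 in Treated against Control and from -0.25 to 0.58 in Treated against Extracted. In Treated against Extracted it was -0.46 to 0.04 for SNHG14, -0.17 to 0.02 for PVT1, -0.24 to 0.20 for GOLGA8A and -0.06 to 0.01 for GOLGA8B. In Extracted against Control it was -0.07 to 0.17 for FTX, -0.19 to 0.05 for PABPC1L and -0.15 to 0.11 for GOLGA8A, which in Treated against Control ranged from -0.26 to 0.18.

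The number of genes called was 3132 on Day1, 1489 on Day3, 302 in Extracted and 3715 in Treated, all against Control, and 1836 in Treated against Extracted. A fit of the 2 groups alone called 1894, 2585, 653, 1645 and 129, and a 2-fold minimum left 461, 280, 68, 562 and 212. Without a filter 832 were called on Day3, 99 in Extracted and 1018 in Treated against Extracted. In Extracted, median-of-ratios scaling called 639, protein-coding rescaling 841 and small-RNA removal, added after seeing the data, 637. Leaving out a library gave 965 to 4106 on Day1, 216 to 2254 on Day3, 2 to 654 in Extracted, 1315 to 4183 in Treated and 166 to 3143 in Treated against Extracted. Of the Day1 calls 69.6% were higher, and 49.2% with median-of-ratios and 32.0% with protein-coding rescaling. For Day3 these shares were 52.8%, 42.1% and 22.4%, for Extracted 43.0%, 51.8% and 25.8%, for Treated against Control 25.6%, 51.1% and 31.2%, and for Treated against Extracted 26.7%, 54.1% and 47.5%. Scaling by median of ratios moved the median of all genes from 0.12 to 0.01 on Day1 and from -0.15 to -0.01 in Treated.

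Replicate numbers did not pair the samples: same-numbered deviations correlated between -0.022 and 0.087. With the replicate block 3199, 1409, 243, 3713 and 1775 genes were called in the same order, and of the 8 genes only PVT1 in Treated against Control lost its call. The cause of these changes was not tested.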

Other observations

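Long non-coding RNA genes as a class were counted beside NEAT1 and MALAT1. Of 1416 tested, 126 fell and 77 rose by call at Day1 (8.90% and 5.44%). Counted by the difference alone, called or not, 60 were lower by at least 2-fold (4.24%), against 157 of 12954 protein-coding genes (1.21%). On Day3, 49 of the 1416 were lower by at least 2-fold, called or not (3.46%), against 140 protein-coding genes (1.08%). NEAT1, MALAT1 and the genes listed with them were left out of both classes, and the difference between the classes was not tested. Of 361 tested long non-coding RNA genes with at most 1 exon per transcript, 22 (6.09%) were lower by at least 2-fold at Day1, called or not.

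Hosts of small nucleolar RNAs and mainly cytoplasmic long non-coding RNAs moved both ways in gel. Of 23 tested, 5 rose and 5 fell at Day1 (21.7% each), beside 14.4% and 6.28% of all tested genes. At Day3, 3 rose and 2 fell (13.0% and 8.70%), beside 5.18% and 4.64% of all tested genes. At Day1 these counts were 2 and 3 without Control replicate 1 or Day1 replicate 1, and 2 and 2 without Control replicate 2. ZFAS1 measured 96.6 and 84.6 TPM in Control, 285.8 and 217.1 at Day1, 180.8 and 170.8 at Day3, 157.7 and 179.1 for Extracted and 232.7 and 191.2 for Treated, and was higher in every library outside Control (1.45 at Day1, adjusted p = 0.000323, by limma as throughout). SNHG12 was at 6.13 ± 0.498 TPM at Day1 against 17.6 ± 1.47 in Control (n = 2, -1.38). This value is a description, because SNHG12 was named above for its likeness to MALAT1. SNHG1 fell at Day3 from 196.8 to 99.1 TPM (-0.98, adjusted p = 0.00163). EPB41L4A-AS1 rose at Day1 by 1.20. In Extracted and in Treated cells 6 and 7 of the 23 rose, beside 0.857% and 6.28% of all tested genes. In each, 1 fell (4.35%), beside 1.13% and 18.2% of all tested genes. The 6 became 0 without any single Control or Extracted library and 1 without either Day3 library, and the 7 became 3 without Control replicate 2. H19, an imprinted RNA, fell from 101.0 to 30.4 TPM in Extracted cells (-1.70, adjusted p = 0.00889).

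Relatives of the coding members and genes for nuclear RNA decay were counted at Day1, when 14.4% of all tested genes rose and 6.28% fell. Of 7 tested poly(A)-binding protein genes and partners 2 rose, PAIP2 by 0.70 and PAIP1 by 0.59, and 0 fell. Of 17 golgin genes 4 rose and 1 fell, with GCC1 at 0.68 and GOLGA2P5 at -1.0. Among the 4 is GOLGA7B, which reached 1 TPM in the Day1 libraries alone and so passed the filter through the group where it was high. The 4 became 0 without either Control library or Day1 replicate 1. Of 28 genes for nuclear RNA decay 7 rose and 1 fell, with ZCCHC7 at 0.81, ZCCHC8 at 0.63 and SRRT at -0.65. The 7 became 1 without Control replicate 2 or Day1 replicate 1, 2 without Control replicate 1 and 4 without any single Day3 or Extracted library. At Day3 0 of the 28 were called by limma, with 2 higher and 1 lower at an unadjusted p under 0.05. FAM49B, the nearest tested gene on the higher-coordinate side of PVT1 but 1738340 bases away, fell in Treated cells from 88.8 to 67.7 TPM (-0.39, adjusted p = 0.0285). MYC, 53099 bases from PVT1 on the other side, was not called there (0.12, adjusted p = 0.5).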
